A study of Homo sapiens with 12 samples.

Results

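Apolipoproteins are the proteins that coat the particles carrying fat and cholesterol in blood. The genes described here encode apolipoproteins and MTTP, the microsomal transfer protein that loads lipid onto apolipoprotein B. The genes were chosen by symbol, namely APOA1, APOA2, APOA5, APOB, APOC1, APOC3, APOE, APOH, APOM and MTTP. Of these 10 genes, 8 were among the 8842 genes listed for each library. APOE and APOM were listed neither by symbol nor by gene ID and were not analysed here.

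The libraries came from HepG2 and LM3, human liver cancer lines established in culture. Cells of each line received siFASRL, a small interfering RNA against the long non-coding RNA FASRL, or siNC, the negative control siRNA, and were collected for RNA-seq 48 h later. The 4 groups (HepG2 siFASRL, HepG2 siNC, LM3 siFASRL and LM3 siNC) had 3 replicates each, 12 libraries in all. Setting siFASRL against siNC asks which RNAs change in a line when this transcript is targeted. FASRL was not among the listed genes, so its level after siFASRL was not analysed here.

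The values are gene expression levels from RSEM, given as FPKM or TPM without a statement of which in the sources used here. Depth is unknown because no counts were used, and the spread of the 3 replicates is the measure of error. Listed values summed to between 316534 and 355094 per library. Pearson's r across genes between replicates on the log2 scale, where genes are not independent replicates, ranged from 0.9954 to 0.9989. Fold changes are given on the scale of log2(value + 1), where the change of a gene with low values comes out too small. A gene was called when its absolute log2 fold change was at least 1 and its limma adjusted p was under 0.05. Nothing in the labels says that the replicates were separate cultures, so the p-values measure only the spread between these libraries.

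In the liver, apolipoprotein B is the scaffold of very low density lipoprotein, and MTTP transfers triglyceride to it in the endoplasmic reticulum as it is made. Apolipoproteins A-I and A-II build high density lipoprotein, and the smaller apolipoproteins ride on the particles and set how fast lipases and receptors take lipid from them. Hepatocytes are the main source of most of these proteins in plasma.

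The cell lines were first checked against hepatocyte markers, of which 10 of 13 were listed. HepG2 siNC cells had all 10 at a mean of 1 or more, and the most abundant was SERPINA1, the protease inhibitor alpha-1 antitrypsin, at 1393 ± 71.3 (SD, n = 3). In LM3 siNC cells only KRT18, HNF4A and SERPINA1 reached a mean of 1. The keratin gene KRT18 stood at 940.3 ± 75.6 there, and the nuclear receptor gene HNF4A at 14.3 ± 0.0954 (SD, n = 3). ALB, the albumin gene, had a mean of 815 in HepG2 siNC but only 0.06, 0.62 and 0.40 in the LM3 siNC libraries. Most hepatocyte markers were thus absent or near 0 in LM3, with 8 of the 10 under 2 in every LM3 library.

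The baseline of the 8 genes differed in the same direction as these markers apart from KRT18, which was higher in LM3 siNC than in HepG2 siNC (means 940.3 and 695). In HepG2 siNC the order from highest to lowest mean was APOA2, APOB, APOA1, APOH, APOC1, APOC3, APOA5 and MTTP, on a scale where values are normalised for gene length. APOA2 ranked 66 among the 8842 listed genes by its mean, APOB 136 and MTTP 6827. The values of neighbours in this order did not overlap, except that those of APOB and APOA1 overlapped between 290.5 and 309 across libraries, with APOB the higher of the pair in each library. In LM3 siNC, by contrast, every gene was at or near 0. The highest LM3 value of any of them was 1.47, for APOA2 in LM3 siNC replicate 2. APOA5 was listed at 0 in all LM3 libraries. Between the control groups, 8 of 8 genes were called, all lower in LM3 (limma, log2 fold changes from -8.59 for APOA2 to -2.30 for MTTP). Over all 8176 genes tested, 23.4% were called and 15.6% were called lower. These 8 genes passed the filter on low values only through HepG2, so they had to differ, and the count is a description. The lines differ in everything else as well.

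**Figure D1:**
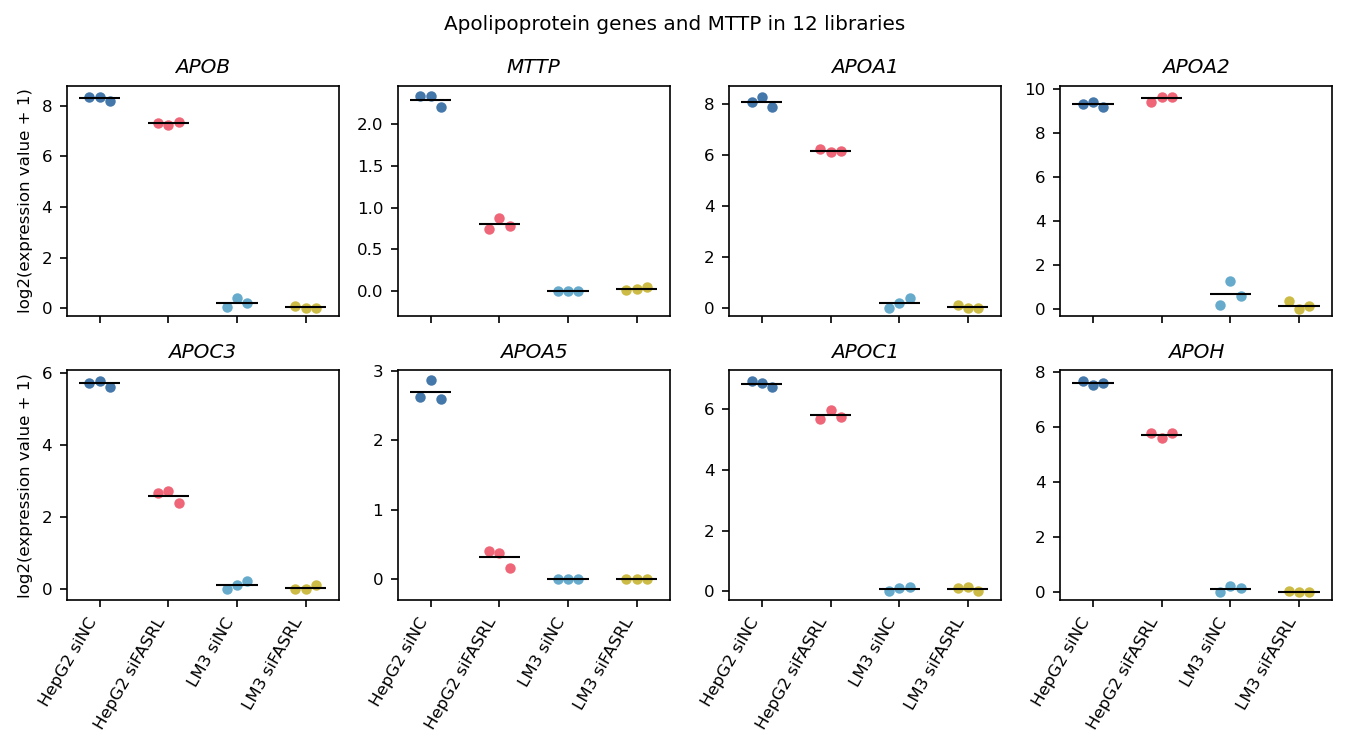
Expression of the 8 listed genes in the 12 libraries, as log2(value + 1), with a separate vertical scale in each panel; points are replicates and horizontal lines are group means. Of the HepG2 siFASRL groups, 7 lie below siNC with no overlap, whereas the APOA2 groups overlap, and LM3 points lie near 0. The share of all genes tested without overlap is not given.

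In HepG2, 7 of the 8 genes had lower values in every siFASRL library than in any siNC library, as the plot of single libraries shows. The exception was APOA2. The share of all genes tested whose groups were apart in this way is not given here, so that count is a description. By limma, 6 of 8 genes were called and all 6 were lower, beside 10.4% called and 6.79% called lower among 8144 genes tested. With adjusted p under 0.05 alone, all 8 passed by limma, but so did 89.1% of all genes tested, so that count says little about these genes. The median log2 fold change of the 8 genes was -1.69, against 0.10 over all genes tested, of which 44.6% were below 0. MTTP and APOA5 reached 1 only in siNC libraries and entered the test through them, so they had to differ, and the median includes them. Of the other 6 genes, at 1 or more in every HepG2 library, 4 were called. With 3 libraries against 3, a two-sided exact permutation test cannot give a p below 0.1, and each of the 7 genes without overlap had that value. The distribution of all genes tested has a gap just under 0, where few listed genes fall. The shares and counts of called genes, and the adjusted p-values, thus refer to a selected list. Whether the 8 genes were listed because they differ is not known. In bulk RNA, fewer cells of a type and less RNA per cell cannot be told apart.

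**Figure D2:**
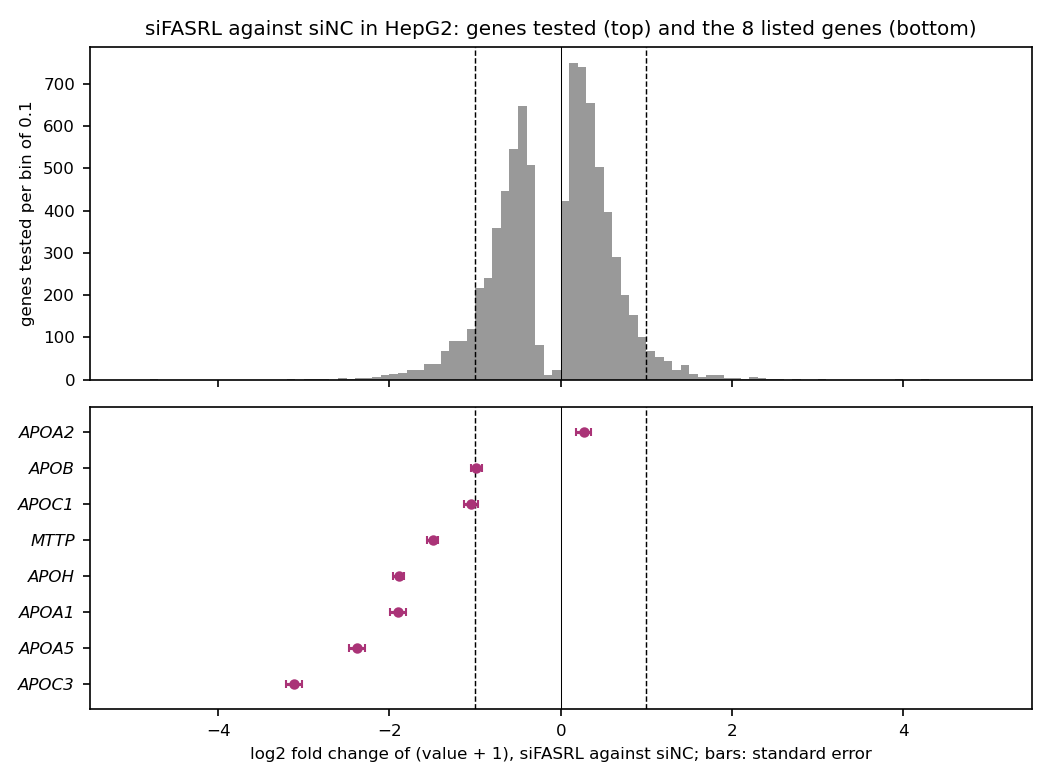
Log2 fold change of siFASRL against siNC in HepG2 for all 8144 genes tested (upper panel, genes per bin of 0.1) and for the 8 genes (lower panel, estimate with standard error). Dashed lines mark -1 and 1; APOC3 lies lowest at -3.11, APOB at -0.98 stays just inside the line, and APOA2 at 0.27, which turns to -0.038 after quantile normalization, is the one estimate above 0.

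The first genes are those that make the particle. APOB (gene ID 338, chromosome 2, 21001429 to 21044073, minus strand, GRCh38.p14) encodes the scaffold protein. Its values were 329, 325 and 290.5 in HepG2 siNC and 161, 151 and 164 in HepG2 siFASRL. All siFASRL libraries were lower, at a mean of 158 ± 6.49 against 315 ± 21.1 (SD, n = 3), or 50.4% of the control. The log2 fold change of -0.98 (SE 0.0663, limma adjusted p = 8.64e-07, lower in 3 of 3 libraries) was not called because it missed the fold threshold. APOB was called after quantile normalization (-1.08), without HepG2 siFASRL replicate 3 (-1.01) and without HepG2 siNC replicate 3 (-1.04), which shows how close it lay to the line.

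MTTP (gene ID 4547, chromosome 4, 99564130 to 99623997, plus strand) encodes the transfer protein itself. It was read at 4.05, 4.07 and 3.63 in HepG2 siNC and at 0.67, 0.84 and 0.72 in HepG2 siFASRL. The groups were far apart for a gene of low level, with means of 3.92 ± 0.249 and 0.743 ± 0.0874 (SD, n = 3). The siNC mean was 5.27 times the siFASRL mean, and the log2 fold change was -1.496 (SE 0.0635, limma adjusted p = 7.54e-08, lower in 3 of 3 libraries). A pseudocount of 5 ended this call (-0.63). MTTP was thus called at a low level, whereas APOB, at a high level, missed the fold threshold. Unlike APOB, MTTP entered the test only through siNC and so had to differ.

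The next genes encode the main proteins of high density lipoprotein. APOA1 (gene ID 335, chromosome 11, 116835751 to 116837622, minus strand), which activates the cholesterol-esterifying enzyme of plasma, had values of 264, 309 and 233 in HepG2 siNC and 73.2, 68.7 and 70.04 in HepG2 siFASRL. The siFASRL libraries lay close together, far under the lowest control. The means were 70.6 ± 2.35 and 268 ± 38.2 (SD, n = 3), a level of 26.3% of the control. The log2 fold change was -1.90 (SE 0.0935, limma adjusted p = 1.56e-07, lower in 3 of 3 libraries).

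APOA2 (gene ID 336, chromosome 1, 161222292 to 161223628, minus strand), the partner of APOA1 in these particles, had overlapping groups. Its values were 639, 682 and 569 in HepG2 siNC and 681, 799.7 and 790.5 in HepG2 siFASRL. Replicate 1 of siFASRL lay just under siNC replicate 2, and a two-sided exact permutation test gave p = 0.2. The mean was 757 ± 65.9 against 629.7 ± 57.1 (SD, n = 3), and the log2 fold change of 0.27 (SE 0.086, limma adjusted p = 0.0149, above the control mean in 3 of 3 libraries) was not called. Its adjusted p passed 0.05 in 3 of 6 limma fits without 1 library (0.00394 to 0.0599), and after quantile normalization the sign turned (-0.038), so no direction is given for APOA2. APOA2 made up 66.4%, 70.4% and 69.6% of the summed values of the 8 genes in siFASRL, against 39.4%, 40.5% and 39.3% in siNC. The sum without APOA2 was 344.5, 336 and 345 in siFASRL and 981, 1002 and 878 in siNC.

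Regulators of triglyceride clearance come next. APOC3 (gene ID 345, chromosome 11, 116829907 to 116833072, plus strand), an inhibitor of lipoprotein lipase, was at 51.9, 53.8 and 47.6 in HepG2 siNC and at 5.31, 5.60 and 4.21 in HepG2 siFASRL. No siFASRL library came near the controls. The mean went from 51.1 ± 3.17 to 5.04 ± 0.733 (SD, n = 3), which is 9.87% of the control. The log2 fold change was -3.11 (SE 0.0914, limma adjusted p = 1.63e-08, lower in 3 of 3 libraries), rank 3 from the most decreased among 8144 genes tested.

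APOA5 (gene ID 116519, chromosome 11, 116789367 to 116792420, minus strand) acts in the other sense to APOC3, since it promotes lipolysis by lipoprotein lipase. Its values were 5.19, 6.29 and 5.05 in HepG2 siNC and 0.33, 0.30 and 0.12 in HepG2 siFASRL. All siFASRL values were under 1 and all siNC values were over 5, with means of 0.25 ± 0.114 and 5.51 ± 0.679 (SD, n = 3). The siFASRL mean was 4.54% of the control, and the log2 fold change was -2.38 (SE 0.0905, limma adjusted p = 4.59e-08, lower in 3 of 3 libraries), rank 13. A pseudocount of 5 ended this call, by a margin beyond the third decimal. APOC3, an inhibitor, and APOA5, which promotes lipolysis by the same lipase, were both called lower. APOA5 entered the test only through siNC and so had to differ.

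APOC1 (gene ID 341, chromosome 19, 44914325 to 44919346, plus strand), a small apolipoprotein that hinders uptake of particles by their receptors, had 122, 117 and 105 in HepG2 siNC and 50.45, 61.4 and 53.0 in HepG2 siFASRL. Groups were apart, at means of 115 ± 8.62 and 54.9 ± 5.71 (SD, n = 3), or 47.9% of the control. The log2 fold change was -1.05 (SE 0.0849, limma adjusted p = 2.64e-06, lower in 3 of 3 libraries). This call was lost without HepG2 siFASRL replicate 1 (-0.99) and with a pseudocount of 5 (-0.998). APOC1 and APOB thus lay on either side of the fold threshold at nearly the same share of the control.

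APOH (gene ID 350, chromosome 17, 66212033 to 66229415, minus strand) encodes beta-2 glycoprotein I, a plasma protein that binds phospholipid. Its values were 205, 187 and 194 in HepG2 siNC and 53.9, 48.4 and 53.7 in HepG2 siFASRL. The libraries of each group lay close together and the groups were well apart. With means of 195 ± 9.49 and 52.0 ± 3.13 (SD, n = 3) and a share of 26.6% of the control, APOH was the gene nearest to APOA1 in size of change. The log2 fold change was -1.89 (SE 0.0655, limma adjusted p = 2.85e-08, lower in 3 of 3 libraries).

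After siFASRL the order of levels in HepG2 was APOA2, APOB, APOA1, APOC1, APOH, APOC3, MTTP and APOA5. Only APOC1 and APOH overlapped as neighbours in this order. Strandedness of the counting is not stated in the sources used here, so where genes overlap on opposite strands their reads cannot be told apart. In GENCODE v29 this touches APOA1 (1834 bases shared with APOA1-AS), APOB (675 bases) and MTTP (272 bases shared with TRMT10A, and 29201 with an antisense gene). APOC1 shares 722 bases with another annotated gene on its own strand.

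The hepatocyte markers moved in HepG2 as well. Summed over the 10 listed markers, the level was 4490.4, 4429 and 4161 in siNC and 2557, 2455 and 2459 in siFASRL. Every siFASRL sum was lower, while SERPINA1 remained the most abundant marker and none was at 0. By limma 5 of 10 were called lower and 0 higher, at a median of -1.02 (3 called with a pseudocount of 5), beside 6.79% called lower over all genes tested. An adjusted p under 0.05 with lower values was found for 9, while 89.1% of all genes tested passed in either direction. ALB went from 815 ± 31.7 to 235 ± 5.62 (SD, n = 3). HNF4A went from 26.2 ± 2.06 to 12.1 ± 0.734 (SD, n = 3), while KRT18 had 695 ± 36.7 and 759 ± 22.0 and was not called. The biliary markers (4 of 4 listed) summed to 515, 554 and 508 in siNC and 1040.4, 1095 and 1054 in siFASRL. KRT7, the most abundant of these, at 338 ± 12.8 and 761 ± 13.7 (SD, n = 3), and KRT19 (122 and 261) carried this sum, whereas EPCAM (31.5 and 15.3, log2 fold change -0.996) and SOX9 (34.2 and 25.6, -0.394) were lower after siFASRL, and none was at 0. Fibroblast markers (6 of 7 listed) summed to 81.2, 82.9 and 81.9 in siNC and 54.2, 48.2 and 50.9 in siFASRL. ACTA2 was higher after siFASRL (10.7 and 17.4, log2 fold change 0.652) while the other fibroblast markers were lower, so the most abundant was COL3A1 in siNC and ACTA2 in siFASRL, with none at 0. Biliary and fibroblast markers tested in HepG2 kept their direction in each alternative. Of the endothelial markers 1 of 4 was listed, VWF at means of 0.10 and 0.03, and of the leukocyte markers 1 of 4, CD68 at 41.1 and 44.9. The part of these markers in the change of the apolipoprotein genes was not tested.

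In LM3, 0 of the 8 genes passed the filter, so limma gave 0 called at the outset, beside 7.62% of 7483 genes tested. Without the filter 7 were tested by limma, with 0 called, 0 at an adjusted p under 0.05 and 0 at an unadjusted p under 0.05. In a single limma fit of all 12 libraries, 8 were tested and 0 called, while 2 (APOA2 and APOB) had an unadjusted p under 0.05. Of these APOA2 alone had an adjusted p under 0.05 (log2 fold change -0.53, limma adjusted p = 0.0317, below the control mean in 3 of 3 libraries). APOA2 values were 0.15, 1.47 and 0.52 in LM3 siNC and 0.30, 0 and 0.10 in LM3 siFASRL, so the groups overlapped. MTTP was listed at 0 in each LM3 siNC library and at 0.01, 0.02 and 0.03 in LM3 siFASRL, a difference near the last decimal of the files (two-sided exact permutation p = 0.1, the smallest possible). Whether siFASRL changes these genes in LM3 could not be read at this level. Of the hepatocyte markers, FOXA2 and TTR were at 0 in all LM3 siFASRL libraries, and the marker sums of 869.99, 1016 and 986 in LM3 siNC and 736, 791 and 762 in LM3 siFASRL were nearly all KRT18. The LM3 mean of HNF4A went from 14.3 to 6.71 (log2 fold change -0.998) and that of the biliary marker KRT7 from 199.7 to 357 (0.838), neither called. The fibroblast marker COL1A1 went from 9.95 to 3.01 in LM3 and was called lower (-1.445).

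Small values in LM3 went together across genes. Summed over the 8 genes they came to 0.18, 2.31 and 1.39 in LM3 siNC and to 0.59, 0.11 and 0.22 in LM3 siFASRL. As shares of the mean HepG2 siNC sum these were 0.0114%, 0.146% and 0.0878%, and then 0.0373%, 0.00695% and 0.0139%. The 8 hepatocyte markers under 2 in every LM3 library had shares of 0.0275%, 0.109% and 0.0827% in LM3 siNC, and 0.0371%, 0.0102% and 0.0143% in LM3 siFASRL. LM3 siNC replicates 2 and 3 were thus the highest by both sums, and LM3 siFASRL replicate 2 the lowest. Where these traces came from was not tested.

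**Figure D3:**
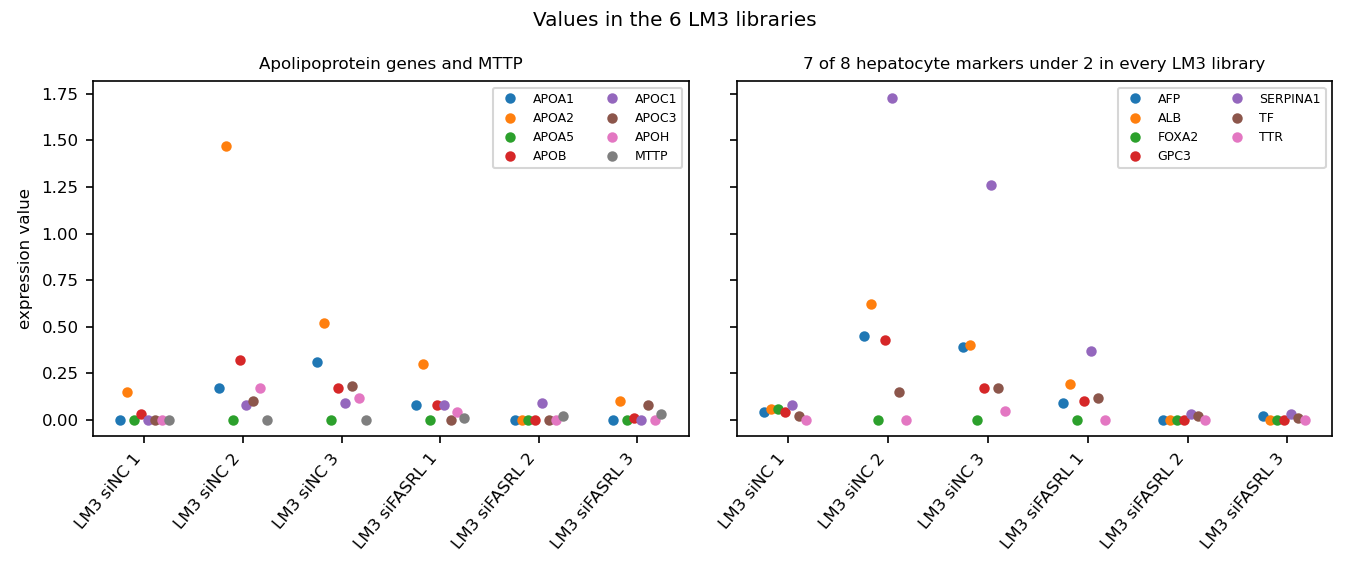
Expression values of the 8 genes (left) and of 7 of the 8 hepatocyte markers under 2 in every LM3 library (right) in each LM3 library; points are single values. The highest points in both panels are in LM3 siNC replicates 2 and 3, with APOA2 at 1.47 and SERPINA1 at 1.73 in replicate 2.

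The difference of the siFASRL effect between the lines, tested as an interaction in 12 libraries, was called for 6 of 8 genes by limma, beside 4.84% of 8285 genes tested. It shares the HepG2 libraries with the HepG2 comparison, and the siNC libraries with the baseline, so these results are not independent. At a pseudocount of 1 APOC3 had the largest difference, 3.03 (SE 0.124, limma adjusted p = 2.38e-09), with HepG2 lower in 3 of 3 siFASRL libraries. With a pseudocount of 0.1 the APOA5 difference was larger, at 4.06, while that of APOC3 did not exceed 3.14 in any alternative. With LM3 at or near 0, the difference mostly restates the HepG2 effect for the genes called, and a different effect in LM3 is not shown.

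Position adds a further view, since 3 of the genes lie in one cluster. APOA5, APOA4, APOC3 and APOA1 span 48.3 kb on chromosome 11, and 3 of these 4 were listed. All 3 were called lower in HepG2, at -2.38, -3.11 and -1.90. The listed genes on both sides, picked by position alone, did not go down with them. ZPR1, a zinc finger gene 1.34 kb from APOA5, stood at 15.9 in HepG2 siNC and 29.6 in HepG2 siFASRL (log2 fold change 0.86, limma adjusted p = 5.16e-07, higher in 3 of 3 libraries, not called). It had a similar estimate in LM3 (0.91), where the 8 genes were at or near 0. SIK3, a kinase gene 5.78 kb from APOA1, was at 11.6 and 13.3 in HepG2. On chromosome 19, APOE, APOC1, APOC4 and APOC2 span 43.8 kb, and 2 of these 4 were listed. APOC2, the activator of lipoprotein lipase, had means of 86.95 in siNC and 54.9 in siFASRL of HepG2 (log2 fold change -0.66, not called). Within 200 kb of APOC1, 6 other listed genes were tested in HepG2, and 2 were below 0. Of these BCAM, a cell adhesion gene, was called (-1.18). TOMM40, 10.6 kb from APOC1, was at 68.1 and 97.99 (log2 fold change 0.52, not called).

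**Figure D4:**
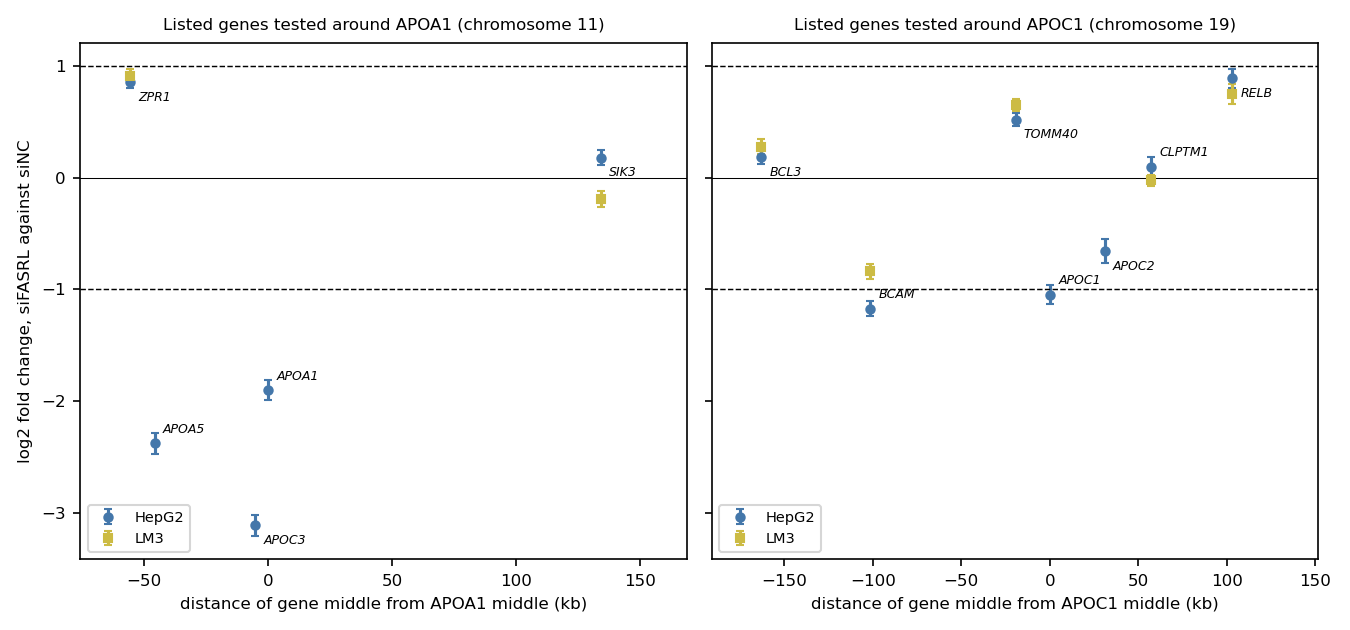
Log2 fold change of siFASRL against siNC, with standard error, for listed genes within 200 kb of APOA1 (left) and APOC1 (right), by distance of gene middles in kb; circles are HepG2 and squares LM3. APOA5, APOC3 and APOA1 lie below -1 between ZPR1 at 0.86 and SIK3 at 0.18.

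Promoter sequences are shown for APOA5 and MTTP, which were called lower, and for APOA2, which was not. They are RefSeq sequences on GRCh38.p14, from 250 bases before to 50 bases after the start, and 5 of the 8 listed genes had an entry. Capitals mark exact matches, on either strand, to TATAAA (bound by TBP), CAAAGTCCA (HNF4A), TTGCNNCAA (C/EBP), CACGTG (E-box of USF1 and USF2) or TGACGT (cyclic AMP response element core). The windows are chr11:116792371-116792670 (minus strand) for APOA5, chr4:99563880-99564179 (plus strand) for MTTP and chr1:161223579-161223878 (minus strand) for APOA2.
APOA5: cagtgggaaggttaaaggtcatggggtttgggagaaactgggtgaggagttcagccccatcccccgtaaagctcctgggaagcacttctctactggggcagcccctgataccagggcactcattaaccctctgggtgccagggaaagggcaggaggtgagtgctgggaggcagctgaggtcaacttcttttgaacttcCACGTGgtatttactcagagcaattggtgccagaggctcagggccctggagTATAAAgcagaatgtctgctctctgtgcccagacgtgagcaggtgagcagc
MTTP: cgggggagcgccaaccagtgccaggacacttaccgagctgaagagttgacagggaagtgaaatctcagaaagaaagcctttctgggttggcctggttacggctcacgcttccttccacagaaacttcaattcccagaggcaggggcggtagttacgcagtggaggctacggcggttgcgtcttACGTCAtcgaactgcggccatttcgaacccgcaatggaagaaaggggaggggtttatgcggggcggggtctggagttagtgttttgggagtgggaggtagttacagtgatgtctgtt
APOA2: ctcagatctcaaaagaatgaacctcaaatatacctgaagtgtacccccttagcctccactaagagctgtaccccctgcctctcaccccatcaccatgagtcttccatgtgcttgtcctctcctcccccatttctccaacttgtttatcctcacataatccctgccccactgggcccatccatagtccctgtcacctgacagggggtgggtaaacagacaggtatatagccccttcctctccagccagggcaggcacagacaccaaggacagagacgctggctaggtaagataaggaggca

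In the APOA5 window the E-box letters lie at -52 to -47 from the start and TATAAA at -1 to 4, and MTTP held TGACGT on the reverse strand at -67 to -62. The APOA2 window held none of these motifs, and neither did those of APOC1 and APOH, which were called lower. APOA5 and MTTP each had a further entry, without a match in APOA5 and with TATAAA on the reverse strand in MTTP. The printed MTTP window reaches TRMT10A, which lies 0.091 kb before MTTP. Which MTTP start is used in these cells was not tested. Over all 35116 promoters, TATAAA was found in 11.5%, CAAAGTCCA in 0.384%, TTGCNNCAA in 1.98%, CACGTG in 7.26% and TGACGT in 7.98%. The GC content of the printed windows was 53.0% for APOA2, 55.3% for MTTP and 56.0% for APOA5, against a median of 58.7%. In the further entries it was 42.0% for MTTP and 60.3% for APOA5. A match is a description of letters and not a binding site.

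Lists of related genes were then counted. Over all genes tested, limma called 3.61% higher and 6.79% lower in HepG2, and 1.42% higher and 6.2% lower in LM3. A gene under 1 in every siFASRL library entered the test only through siNC and had to differ. This is stated below where such genes were called, and some medians also include such genes that were not called. Among other apolipoproteins (10 of 20 listed), limma called 0 higher and 3 lower of 9 tested in HepG2 and 0 higher and 1 lower of 5 in LM3. Their medians were -0.66 and -0.83, beside 0.10 and -0.06 over all genes tested. SAA4, an apolipoprotein of high density lipoprotein, had means of 23.5 ± 1.67 in HepG2 siNC and 7.42 ± 0.998 in siFASRL (SD, n = 3), a log2 fold change of -1.55. CLU, the gene of apolipoprotein J, went from 238 ± 21.0 to 82.5 ± 7.35 in HepG2 (-1.52). In LM3 it had 779 ± 101 and 436 ± 22.6 (SD, n = 3), which was not called (-0.83; -1.03 and called after quantile normalization). APOL6 was called in LM3 (-1.35), which it entered only through siNC, but not after quantile normalization (-0.986) or with a pseudocount of 5 (-0.564). In HepG2 APOL6 was called only in 5 alternatives, among them median-of-ratios scaling (-1.002). Over the alternatives 3 to 4 genes were called lower in HepG2 and 0 to 1 in LM3. PON2, a paraoxonase gene, was called in HepG2 (-1.10).

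Genes of lipoprotein assembly and secretion (21 of 33 listed) followed. Of 21 tested in HepG2, 0 were called higher and 1 lower, at a median of -0.49, and of 18 in LM3, 0 higher and 2 lower, at -0.56. SOAT1, which esterifies cholesterol, was called in HepG2 (58.9 ± 6.60 to 21.9 ± 1.19, SD, n = 3, -1.38) and in LM3 (-1.18). SEC24D, a coat protein gene of secretory vesicles, was called in LM3 (-1.06; -0.95 and not called after median-of-ratios scaling, -0.858 with a pseudocount of 5). The HepG2 count of called genes became 2 without HepG2 siFASRL replicate 1, HepG2 siNC replicate 2 or HepG2 siNC replicate 3, after quantile normalization and with a pseudocount of 0.1. The LM3 count was 1 to 2 over the alternatives.

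Among receptors and uptake genes (21 of 26 listed), 0 were called higher and 1 lower of 21 in HepG2, and 0 higher and 3 lower of 18 in LM3, at medians of -0.58 and -0.66. The HepG2 count became 2 without HepG2 siFASRL replicate 1, HepG2 siNC replicate 2 or HepG2 siNC replicate 3 and after median-of-ratios scaling, 3 after quantile normalization or with a pseudocount of 0.1, and 0 with a pseudocount of 5. The LM3 count became 5 without LM3 siNC replicate 1 or with a pseudocount of 0.1, 1 after quantile normalization or with a pseudocount of 5, and 0 after median-of-ratios scaling. SORL1, a sorting receptor gene, went from 13.4 ± 1.68 to 4.46 ± 0.271 in HepG2 (SD, n = 3, -1.39; -0.96 with a pseudocount of 5). SDC1, a heparan sulfate carrier, was called in LM3 (-1.03), which it entered only through siNC, but not without LM3 siFASRL replicate 3 (-0.996), after quantile normalization (-0.685) or with a pseudocount of 5 (-0.347). LIPA, the lysosomal acid lipase gene, was called in LM3 at -1.003, but not without LM3 siFASRL replicate 1 (-0.99), LM3 siFASRL replicate 2 (-0.97) or LM3 siNC replicate 2 (-0.985). SDC1 and LIPA were also not called after median-of-ratios scaling (-0.975 and -0.89). LIPA was not called after quantile normalization (-0.968) or with a pseudocount of 5 (-0.847) either.

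For remodelling and lipid transfer (17 of 22 listed), 0 were called higher and 2 lower of 16 in HepG2, and 0 higher and 4 lower of 10 in LM3, at medians of -0.501 and -0.72. The LM3 count was 2 after median-of-ratios scaling, 1 after quantile normalization and 0 with a pseudocount of 5, and the HepG2 count of lower genes was 1 to 4 over the alternatives. The HepG2 count of higher genes became 1 with a pseudocount of 0.1 and after quantile normalization. ANGPTL8, which takes part in the inhibition of lipoprotein lipase, went from 24.5 ± 2.99 to 7.19 ± 0.624 in HepG2 (SD, n = 3, -1.63). PCOLCE, an enhancer of procollagen processing, was called in HepG2 (-1.53) and LM3 (-1.55), but in neither with a pseudocount of 5 (-0.963 and -0.766). PLTP, the phospholipid transfer protein gene, was called in LM3 (-1.09), but not after quantile normalization (-0.72) or with a pseudocount of 5 (-0.515). ABCG1, a cholesterol exporter gene, was called in LM3 as well (-1.08). It was not called after median-of-ratios scaling (-0.98), after quantile normalization (-0.781) or with a pseudocount of 5 (-0.615).

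Regulators of apolipoprotein genes (25 of 33 listed) went in both directions. In HepG2, 2 were called higher and 8 lower of 24, and in LM3 1 higher and 4 lower of 16, at medians of -0.77 and -0.48. The list shares genes with the hepatocyte markers, HNF4A and FOXA2 among them. Over the alternatives the counts of lower genes were 5 to 11 in HepG2 and 2 to 6 in LM3, and that of higher genes was 1 to 3 in HepG2. NR1H4, the bile acid receptor gene, went from 10.997 ± 1.44 to 1.27 ± 0.0611 in HepG2 (SD, n = 3, -2.39). MLXIPL, a glucose-responsive factor, went from 13.9 ± 0.452 to 2.59 ± 0.396 (SD, n = 3, -2.06) and was called in LM3 too (-1.28), which it entered only through siNC, but not after quantile normalization (-0.89) or with a pseudocount of 5 (-0.518). CREB3L3, a liver factor that activates genes of triglyceride clearance, was called in HepG2 (6.60 ± 0.924 to 1.21 ± 0.0907, SD, n = 3, -1.77; -0.897 and not called with a pseudocount of 5). In LM3 CREB3L3 went from 21.4 ± 3.20 to 2.80 ± 0.497 (SD, n = 3, -2.56), so it was present and lower in a line with the 8 genes at or near 0. SREBF1, the lipogenic factor gene, was called in HepG2 (-1.23) and LM3 (-1.66). Called higher were JUN, in HepG2 (12.7 ± 1.76 to 32.6 ± 2.95, SD, n = 3, 1.30) and LM3 (1.45), and CEBPB, in HepG2 (1.11). CEBPB was not called without HepG2 siFASRL replicate 2 (0.99), without HepG2 siNC replicate 3 (0.998) or after quantile normalization (0.96).

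Other secreted plasma proteins of hepatocytes (42 of 52 listed) had many calls in HepG2. Of 41 tested, 1 was called higher and 18 lower, at a median of -0.89. In LM3, 11 were tested, with 0 higher and 2 lower, at -0.71, and over the alternatives 0 to 1 higher and 0 to 6 lower (6 with a pseudocount of 0.1, 0 with a pseudocount of 5 or after either median-of-ratios scaling or quantile normalization). Several of these 11 genes, the one at the median among them, entered only through siNC and had to differ. The HepG2 count of lower genes was 12 to 19 over the alternatives, and the list shares 5 listed genes with the hepatocyte markers. HP, the haptoglobin gene, went from 62.1 ± 5.68 to 13.5 ± 1.26 (SD, n = 3, -2.12), and HPR, which entered only through siNC, had -1.82 (-0.778 and not called with a pseudocount of 5). These paralogs are alike in sequence, so their reads may have been split and both values are uncertain. Of the 19 genes of this list called in HepG2, 2 entered only through siNC, HPR among them. SERPINF2, the plasmin inhibitor gene, went from 71.05 ± 5.72 to 16.5 ± 0.405 (SD, n = 3, -2.04), and CPB2, a carboxypeptidase gene, from 8.48 ± 0.353 to 1.45 ± 0.318 (SD, n = 3, -1.96). IGFBP1, which binds insulin-like growth factors, was the gene called higher, from 141 ± 24.2 to 726 ± 73.9 (SD, n = 3, 2.37). In LM3 IGFBP1 was not called (0.87; 1.03 and called without LM3 siNC replicate 2).

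Cholesterol synthesis genes (21 of 23 listed) were counted because cholesterol ester is particle cargo. In HepG2, 0 were called higher and 8 lower of 21, at a median of -0.95, and in LM3, 0 higher and 13 lower of 21, at -1.16. MSMO1, a sterol oxidase gene, went from 34.96 ± 1.11 to 6.67 ± 0.475 in LM3 (SD, n = 3, -2.23) and had -1.98 in HepG2. INSIG1, the sterol-sensing regulator gene, had -2.09 in LM3 and -1.75 in HepG2. STARD4, a sterol carrier gene, had -1.84 in LM3, which it entered only through siNC (-0.719 and not called with a pseudocount of 5), and -1.79 in HepG2. FDFT1, the squalene synthase gene, had -1.76 in LM3, and -0.95 in HepG2, where it was not called (-1.06 and called after quantile normalization). Over the alternatives the counts of lower genes were 5 to 10 in HepG2 and 8 to 14 in LM3.

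**Figure D5:**
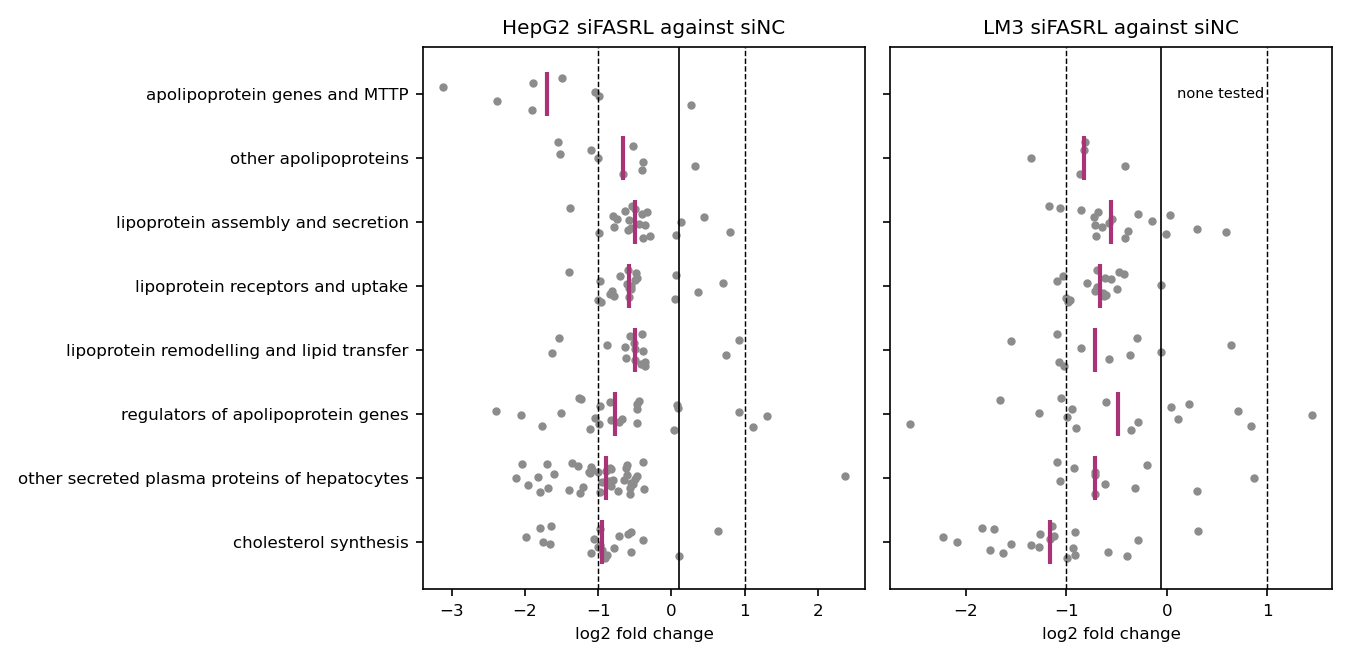
Log2 fold changes of siFASRL against siNC for the 8 genes and for the lists, in HepG2 (left) and LM3 (right); grey points are genes tested, purple bars list medians, and the solid line is the median of all genes tested, 0.10 in HepG2 and -0.06 in LM3. The 8 genes have a median of -1.69 in HepG2, which includes MTTP and APOA5, tested only through siNC, and none was tested in LM3.

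Finally, each gene was set beside the listed genes of most similar pattern, leaving the 8 genes themselves out, by the root mean square difference of log2(value + 1) over 12 libraries after centring. APOB was closest to GPC3, the glypican-3 gene, at 0.05, with GPC3 means of 334 in HepG2 siNC and 167 in HepG2 siFASRL. APOA2 was closest to FN1, the fibronectin gene, at 0.131, and FN1 had 576 in HepG2 siNC and 705 in siFASRL (log2 fold change 0.29; -0.017 after quantile normalization). The next genes for APOA2, SERPINA1 and AFP, were much farther, at 0.467 and 0.636. APOA1 and APOH both had DHRS2, a dehydrogenase gene, nearest (0.186 and 0.198), with means of 368 and 123 in HepG2. APOC3 was nearest to PGC (0.194; means 60.8 and 6.14 in HepG2), and SMARCA1 was also among its 3 nearest (0.445). APOA5 was nearest to KLB, DIO1 and SLC5A9 (0.088, 0.105 and 0.146), and MTTP to TRPV4, SLC13A3 and KCNIP3 (0.056, 0.063 and 0.092). APOC1 was nearest to APOC2, ITIH2 and ORM2 (0.175, 0.182 and 0.183). Nearest to APOB after GPC3 were IGF2 (0.164) and SERPINA3 (0.165), to APOA1 after DHRS2 SPP1 (0.231) and A2M (0.29), and to APOH after DHRS2 ORM1 (0.319) and HAMP (0.347). Within the 8 genes the closest pair was APOA1 and APOH, at 0.23. All 12 libraries enter this measure, so the gap between HepG2 and LM3 weighs in it.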

How the data were processed

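RNA-seq expression values of 12 libraries were analysed. Per the labels and the study's methods, the authors filtered reads with SOAPnuke (1.5.2), mapped them with HISAT2 (2.0.4), aligned them to a coding gene set with Bowtie2 (2.2.5) and computed expression with RSEM (1.2.12). The deposited values are the authors' normalised RSEM levels with 2 decimals; whether they are FPKM or TPM is not stated in the sources used here. The processing notes name hg19, while chromosome accessions in the files belong to GRCh38, whose coordinates are used. Groups came from the sample labels. How the 8842 genes were selected is not stated. Among those with a mean of at least 5, a log2 ratio between -0.20 and -0.04 was found for 5 of 6367 in HepG2 (0.0785%) and 578 of 5937 in LM3 (9.74%). Shares and counts of called genes, and adjusted p-values, thus describe a selected list. One table also carried 6 columns repeating LM3 values for all 8842 genes, which were not used as further measurements.

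Since the values are not counts, limma (3.58.1, R 4.3.3) was fitted to log2(value + 1) in place of a count test, for genes at 1 or more in at least 3 libraries of the fit, with Benjamini-Hochberg adjustment over all genes tested. Fits held the 6 libraries of a line, the 6 siNC libraries, or all 12 for the interaction. For single genes a permutation test was run (exact, two-sided). The threshold for calls was that of the study. The 10 genes and the gene lists were chosen with earlier results of these data known. Named are these 10 genes, the listed genes called in either line with the largest absolute fold change (up to 4 per list and direction), and the 3 nearest patterns per gene. Markers and neighbours by position were named besides, and BCAM was named after its values were seen. Some genes that these rules pick, and a motif of the planned search, are not reported here. Alternatives were the pseudocount (0.1 and 5), the filter (none, or at least 5), median-of-ratios scaling, quantile normalization, a trend in limma's prior variance, one fit of 12 libraries, a replicate block, adjusted p alone and leaving out each library. Fits and the motif search were tested on simulated data. Tables and figures were made with Python (3.11.15), pandas (2.3.3), numpy (2.4.6), scipy (1.17.1) and matplotlib (3.10.9).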

Additional observations from a re-analysis of the deposited data

Results flagged for a closer look

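The limma interaction test of the siFASRL effect between the lines, over 12 libraries, gave an adjusted p under 0.05 for all 8 listed genes, beside 46.7% of 8285 genes tested. The filter was passed through HepG2, since the genes reached 1 in 0 LM3 libraries (1 for APOA2), so the test mostly restates the HepG2 effect except for APOA2, and a different effect in LM3 is not shown. The effect in LM3 minus that in HepG2, on the log2 scale, was 3.03 for APOC3 (limma adjusted p = 2.38e-09), 2.38 for APOA5 (4.56e-09), 1.78 for APOH (1.47e-08) and 1.73 for APOA1 (7.93e-07). It was 1.52 for MTTP (limma adjusted p = 7.21e-09), 1.05 for APOC1 (5.78e-06), 0.80 for APOB (9.32e-05) and -0.80 for APOA2 (0.0379). Values of these genes in LM3 were at or near 0, and apart from APOA2 their LM3 effects in a fit of 12 libraries lay between -0.18 and 0.03. For APOA2 the effect was 0.27 in HepG2 and -0.53 in LM3. Without LM3 siNC replicate 1 the APOA2 difference reached -1.05, past the threshold, and without LM3 siNC replicate 2 it was -0.50. Its limma adjusted p ranged from 0.00206 to 0.0869 with 1 library left out, and was over 0.05 in 6 of 12 such fits. With a pseudocount of 0.1 the APOA1 difference was 1.04 and no longer called, that of APOB fell to 0.022, so nearly all of it was lost, and that of APOA2 was -1.91. The cause of the differences was not tested.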

How the results depend on the processing

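Of the results for single genes among the 8, 366 kept direction and side of the threshold over the alternatives, 10 lost the call, 4 gained it and 1 turned. The HepG2 count of 6 of 8 called became 3 with a pseudocount of 5, 5 with the stricter filter, 7 with quantile normalization and 8 with adjusted p alone; the interaction count of 6 became 3 with a pseudocount of 5. Leaving out 1 library gave HepG2 counts of 5 to 7 and interaction counts of 5 to 7, and the baseline count of 8 was 7 with a pseudocount of 5 or the stricter filter. The LM3 count was 0 in each alternative. MTTP had no value under the stricter filter, which it did not pass. The larger pseudocount lowers fold changes of low genes by construction. After quantile normalization 4 estimates turned in HepG2, namely APOA2 to -0.038 (limma adjusted p = 0.596), FN1 to -0.017, KRT18 to -0.187 and SDC1 to -0.032; SDC1 also turned without HepG2 siFASRL replicate 1, over a range of -0.008 to 0.126 with 1 library left out. The cause was not tested.

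Over all genes, 847 calls in HepG2 became 1373 and 331 with pseudocounts of 0.1 and 5, 570 in LM3 became 900 and 180, 401 for the interaction became 664 and 153, and 1911 at baseline became 989 with a pseudocount of 5. The share of calls that were higher went from 34.7% to 47.0% in HepG2 and from 33.1% to 46.5% at baseline after quantile normalization. In LM3 it went from 18.6% to 31.0% (median-of-ratios scaling), 37.9% (quantile normalization) and 28.9% (pseudocount of 5). The median of all genes shifted by 0.107 in LM3 with median-of-ratios scaling and by 0.136 at baseline with quantile normalization. Among list summaries 652 stayed, with a count within 1.5 times or a median log2 fold change within a fixed margin of the main fit, and 68 moved.

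Same-numbered libraries did not deviate together in each pair (r of 0.319, 0.371 and -0.2 in HepG2 and -0.08, 0.118 and -0.175 in LM3), and not every library correlated best with its own number. A replicate block in the fit left the counts of called genes at 6, 0 and 6 for HepG2, LM3 and the interaction. Depth is unknown, so no detection limit is given for LM3.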

Other observations

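Secreted plasma protein genes were lower at baseline in LM3 as well. Of 41 tested secreted plasma protein genes, limma called 40 lower in LM3 siNC than in HepG2 siNC, beside 15.6% called lower over all 8176 genes tested. Only 11 of these 41 passed the filter within the LM3 libraries, so most entered the test through HepG2 and had to differ. Of 21 cholesterol synthesis genes, 4 were called higher and 2 lower in LM3 siNC, beside 7.74% and 15.6% over all genes tested.

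ZPR1, next to the chromosome 11 cluster, had higher values after siFASRL in both lines, from 15.9 to 29.6 in HepG2 and from 12.8 to 24.8 in LM3, and missed the fold threshold in both (0.86 and 0.91; 1.02 in LM3 after median-of-ratios scaling). AXIN2, the nearest listed gene before APOH at 650 kb, had 26.6 and 51.5 in HepG2, a log2 fold change of 0.93, and 7.17 and 6.04 in LM3. These neighbours were chosen by position.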
